A study of Mus musculus with 4 samples.

Results

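The genes described here are the secreted Wnt ligands, their Frizzled and Lrp receptors, the R-spondins, the Sfrp and Dkk antagonists and the Axin, Lef and Tcf genes, measured in mouse cerebellum after deletion of Dicer in astroglia. They were chosen by gene name on the array: 68 probes of 49 genes carried a matching name, of 41174 probes in all. Of these, 40 probes of 34 genes exceeded background clearly on every array in at least 1 of the genotypes and were kept, among 18024 genes tested in the series. Wnt proteins bind Frizzled receptors together with Lrp5 or Lrp6, which keeps beta-catenin from being destroyed and lets it switch on genes with Tcf and Lef factors. Sfrp proteins bind Wnts, Dkk proteins mostly act on Lrp receptors, R-spondins strengthen the signal through Lgr receptors, and Axin2 is both a brake on the pathway and one of its most general target genes. In the cerebellum, Wnt7a is known as a granule neuron signal that shapes mossy fibre terminals, and Wnt3 is made by Purkinje neurons.

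Each of the 4 two-colour Agilent arrays carried cerebellar RNA of 1 Dicer mutant (mGfap-Cre with Dicer flox/flox) and 1 control littermate (mGfap-Cre with Dicer +/flox), both at postnatal day 30 and of mixed strain background, so mutant and control shared the Cre and at least 1 floxed allele. The pairs were biologically independent, and the mutant was labelled with Cy5 in pairs 1 and 3 and with Cy3 in pairs 2 and 4. Cre is driven by a mouse Gfap promoter, and RNA came from the whole cerebellum, so fewer cells of a type and less RNA per cell cannot be told apart. An array had between 26397 and 28907 mutant-channel probes clearly above background and between 26289 and 27717 control-channel ones, and the number of arrays limits the precision. Dicer1 stood at a log2 ratio of 0.04 ± 0.22 (SD, n = 4 pairs) by its brighter probe and at -0.06 ± 0.18 by its second probe. Neither value measures the deletion in astroglia, and where the probes lie relative to the floxed part was not established. All markers fixed for granule neurons (12) and Purkinje neurons (11) were tested and lay above background in every channel, while 4 of 16 brainstem and midbrain markers were tested.

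The 5 probes behind the genes that changed are shown first, because each value below rests on 1 spot of such a probe per array. Their first 30 of 60 bases, 5′ to 3′ as deposited, were
Sfrp4 probe A_51_P457196: cacagttgtctgtgtgcatactgtgtaaga
Dkk3 probe A_52_P220176: gaatgaaatttgcaaagtcgcttagcaaca
Wnt6 probe A_52_P415155: ttcctcagaattactgggatggatgggtga
Wnt6 probe A_51_P482571: attcccctgaaaggccctttgctagttctg
Fzd9 probe A_51_P511015: tatttaatgatgtaatttattgtggcattt
On build mm9 these probes lie on chromosome 13 from 19724488 to 19724547 (Sfrp4), on chromosome 7 from 119260828 to 119260887 (Dkk3), on chromosome 1 from 74831461 to 74831520 and from 74831361 to 74831426 (Wnt6), and on chromosome 5 from 135724815 to 135724874 (Fzd9). The 2 Wnt6 probes do not overlap. Which exon or UTR each probe lies in was not determined, since no annotation of that build was used here.

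In mutant cerebellum Sfrp4 and Dkk3, of the Sfrp and Dkk families, and the ligand gene Wnt6 rose. The receptor gene Fzd9 fell, and the other 30 tested genes did not pass the test. Sfrp4 was 2.82-fold and Dkk3 2.38-fold higher, Wnt6 was 1.66-fold higher, and Fzd9 was at 0.625 of the control level. The threshold was an adjusted p of 0.05 from limma with Benjamini-Hochberg adjustment over 18024 genes. By that rule 3 of 34 genes rose, where 0.588% of all genes rose, and 1 of 34 fell, where 0.444% of all genes fell. The 4 called genes are 11.8% of the members, beside 1.03% of all genes. The members were chosen with earlier results of these data known, so this contrast is not a test of an excess. The median log2 ratio of the members was -0.01 and that of all genes 0.00, and 15 of 34 members lay above 0, so the group as a whole had no common direction. An unadjusted p under 0.05 was reached by 7 of 34 members, beside 9.39% of all genes, and 10 of 34 had the same sign in all 4 pairs, beside 15.1% of all genes.

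**Figure D1:**
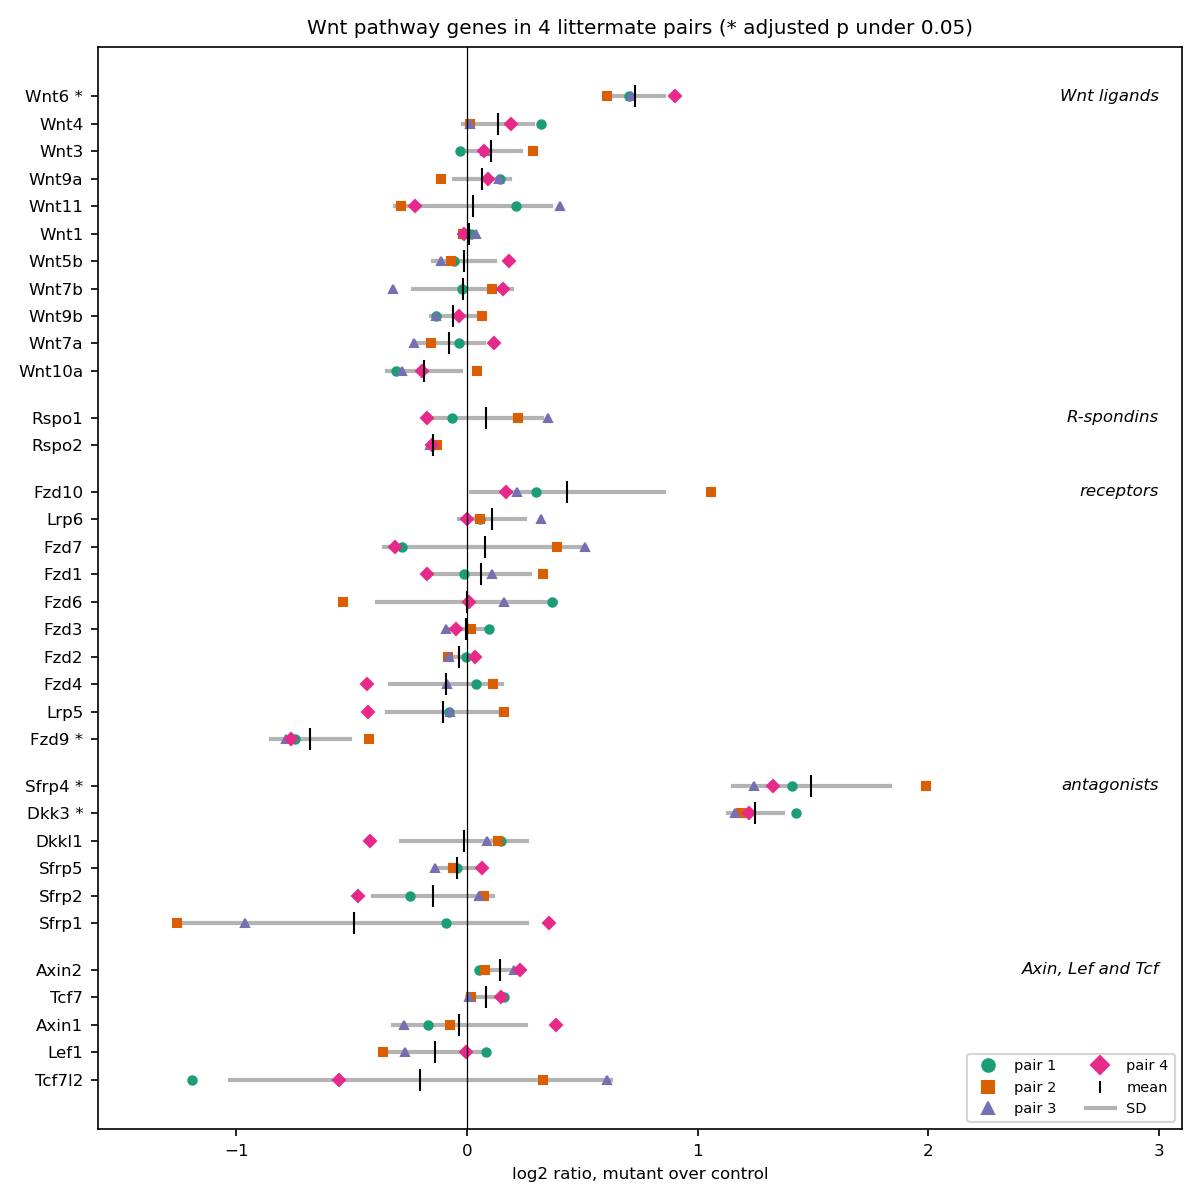
The horizontal axis gives the log2 ratio of mutant over control for each of the 34 genes, with 1 symbol for each littermate pair, a black tick at the mean and a grey bar for the SD. Sfrp4, Dkk3 and Wnt6 lie above 0 and Fzd9 below 0 in all 4 pairs, while Tcf7l2 runs from -1.19 to 0.61.

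Among the Sfrp and Dkk genes, grouped here as antagonists by name only, Sfrp4 and Dkk3 were the only ones called of 6 tested. Whether Dkk3 acts on Wnt signals in this tissue was not tested. Sfrp4 encodes a secreted protein with a Frizzled-like domain that can bind Wnts. Its log2 ratios were 1.41, 1.99, 1.25 and 1.33 in pairs 1 to 4, with a mean of 1.49 ± 0.34 (SD, n = 4; 95% interval 1.20 to 1.79; adjusted p = 0.0114). The normalized log2 intensities were 9.10, 9.30, 8.95 and 9.33 in the mutants and 7.69, 7.31, 7.71 and 8.002 in the controls, so every mutant was brighter than every control. Dkk3, a divergent secreted member of the Dickkopf family, was higher by 1.42, 1.19, 1.16 and 1.22, with a mean of 1.25 ± 0.12 (95% interval 1.08 to 1.42; adjusted p = 0.00529). Its intensities ran from 8.87 to 9.05 in the mutants and from 7.58 to 7.82 in the controls, without overlap.

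The other antagonist genes did not pass. Sfrp1, which also binds Wnts, gave -0.09, -1.26, -0.96 and 0.36 in the 4 pairs, a mean of -0.49 ± 0.75 (95% interval -1.21 to 0.23; adjusted p = 0.731). Pairs 2 and 3 were far below 0 and pair 4 above it, so the interval holds both a loss of more than 2-fold and no change. The spread lay between animals of both genotypes: Sfrp1 intensities ran from 7.37 to 8.76 in mutants and from 7.01 to 9.10 in controls. Sfrp2 gave -0.25, 0.07, 0.05 and -0.47 (mean -0.15 ± 0.26, adjusted p = 0.807), with 2 pairs on either side of 0. Sfrp5 (-0.04 ± 0.08) and Dkkl1, a Dickkopf-like gene (-0.01 ± 0.27), had means close to 0. Dkk2 was above background on 1 array in each channel, and Dkk1 and Dkk4, which encode the classical inhibitors of Lrp5 and Lrp6, on none.

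Among the ligands, Wnt6 was called of 11 tested genes. Wnt6 encodes a secreted ligand of the canonical branch. Its brighter probe gave log2 ratios of 0.70, 0.61, 0.71 and 0.90, with a mean of 0.73 ± 0.12 (95% interval 0.55 to 0.91; adjusted p = 0.0207). The second probe gave 0.58, 0.72, 0.60 and 0.96, a mean of 0.71 ± 0.17 (adjusted p = 0.0221 in the limma fit of each probe on its own). By the brighter probe the mutants lay between 9.67 and 9.98 on the normalized log2 scale and the controls between 9.02 and 9.17, and the genotypes did not overlap with either probe. Wnt6 did not pass with median centring (0.71, adjusted p = 0.0647), nor when pair 1 (0.73, adjusted p = 0.119) or pair 3 (0.73, adjusted p = 0.0936) was left out.

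The ligands with roles in cerebellar neurons did not pass. Wnt7a stood at -0.08 ± 0.15 with a 95% interval of -0.27 to 0.12, and Wnt7b at -0.02 ± 0.21 with an interval of -0.20 to 0.16. Wnt3 gave -0.03, 0.29, 0.08 and 0.07 (mean 0.10 ± 0.13, interval -0.07 to 0.27, adjusted p = 0.768), and its second probe had a mean of 0.14 ± 0.23. For Wnt7a, Wnt7b and Wnt3, a rise as large as that of Wnt6 lay outside the 95% interval. Wnt10a gave -0.31, 0.05, -0.28 and -0.20 (mean -0.18 ± 0.16, adjusted p = 0.483), with pair 2 on the other side of 0. Wnt4 gave 0.32, 0.01, 0.01 and 0.19 (mean 0.13 ± 0.15, adjusted p = 0.729), above 0 in every pair. Wnt9b gave -0.13, 0.07, -0.14 and -0.03 (mean -0.06 ± 0.10, adjusted p = 0.861). The remaining ligands lay near 0: Wnt9a had a mean of 0.06 ± 0.12, Wnt11 of 0.03 ± 0.34, Wnt5b of -0.01 ± 0.13 and Wnt1, the midbrain-hindbrain patterning ligand, of 0.01 ± 0.03. The control channel of Wnt1 was above background on 3 of 4 arrays.

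A further 8 ligand genes did not reach the brightness required. Wnt2 was above background on 2 arrays in the mutant channel and on 0 in the control channel. Wnt8a and Wnt16 were above background on 1 array in each channel. Wnt2b, Wnt3a, Wnt5a, Wnt8b and Wnt10b were not above background on any array. Without a filter on dim probes, when all 49 genes were fitted, the calls were 3 higher and 1 lower again.

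Of the R-spondin genes, Rspo1 and Rspo2 were bright enough. Rspo2 gave -0.15, -0.13, -0.16 and -0.15, the closest agreement between pairs among the members, with a mean of -0.15 ± 0.01 (95% interval -0.29 to -0.01; unadjusted p = 0.0442, adjusted p = 0.506 by limma). The interval is wider than this SD because limma draws each gene's variance towards that of all genes. Rspo1 stood at 0.08 ± 0.24. Rspo4 was above background on up to 3 arrays in the mutant channel and 2 in the control channel, and Rspo3 on 1 in each.

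Among 10 tested receptor genes, Fzd9 fell and none rose. Fzd9 encodes a Frizzled receptor. Its log2 ratios were -0.74, -0.42, -0.78 and -0.76, with a mean of -0.68 ± 0.17 (95% interval -0.87 to -0.49; adjusted p = 0.0279). The mutants lay at 9.21, 9.40, 9.24 and 8.90 and the controls at 9.96, 9.82, 10.02 and 9.67, without overlap, and pair 2 showed the smallest loss. The fall did not pass with the scanner's processed signals (-0.76, adjusted p = 0.0590) or when pair 1 (-0.69, adjusted p = 0.148) or pair 3 (-0.67, adjusted p = 0.125) was left out, and just missed with no replicate block (adjusted p = 0.0502).

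**Figure D2:**
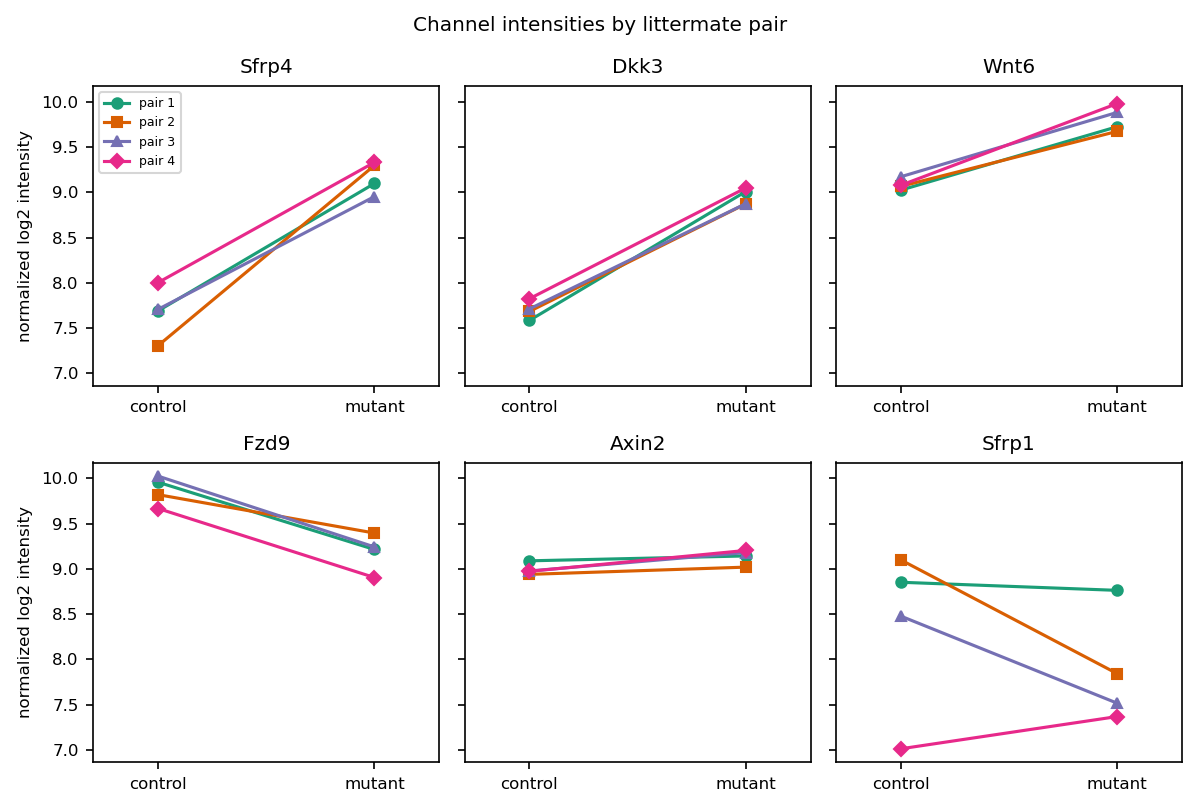
The vertical axis gives the normalized log2 intensity of the brightest probe of 6 genes, with 1 line joining the control and the mutant of each pair. Every line rises for Sfrp4, Dkk3 and Wnt6 and falls for Fzd9, the lines of Axin2 are nearly flat, and those of Sfrp1 differ between pairs; levels of different probes cannot be compared.

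Fzd10, another Frizzled receptor, had the highest ratio of the receptors that did not pass. It gave 0.30, 1.06, 0.22 and 0.17, a mean of 0.43 ± 0.42 (95% interval 0.06 to 0.81; adjusted p = 0.431). By this probe the mutants (8.47 to 9.05) did not overlap the controls (7.995 to 8.37) either. Absence of overlap was therefore not limited to the called genes, and its share among all genes was not counted. Pair 2 stood far above the other pairs, and the second Fzd10 probe, which is dimmer, gave 0.12 ± 0.08 with 0.06 in pair 2. Fzd10 stood at 0.21 (adjusted p = 0.373) without replicate 2 and passed without replicate 4 (0.66, adjusted p = 0.0154). The co-receptor gene Lrp6 gave 0.05, 0.06, 0.32 and 0.002 (mean 0.11 ± 0.14, adjusted p = 0.762), and Lrp5 stood at -0.10 ± 0.24. Among the other Frizzled genes the means were 0.06 ± 0.21 for Fzd1, -0.03 ± 0.06 for Fzd2, -0.01 ± 0.08 for Fzd3, -0.09 ± 0.24 for Fzd4, 0.00 ± 0.39 for Fzd6 and 0.08 ± 0.44 for Fzd7. Fzd8 was above background on up to 3 arrays in either channel and Fzd5 on 1 in the mutant channel only, so neither was tested.

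None of the 5 genes that act inside the cell passed. Axin2, whose transcript rises with beta-catenin activity in most tissues, gave 0.05, 0.08, 0.20 and 0.23, a mean of 0.14 ± 0.09 (95% interval -0.02 to 0.31; adjusted p = 0.630). All 4 pairs lay above 0, and the upper bound of the interval corresponds to a smaller rise than that of Wnt6. Lef1 gave 0.08, -0.37, -0.27 and -0.003 (mean -0.14 ± 0.21, adjusted p = 0.785). Tcf7 gave 0.16, 0.02, 0.01 and 0.15 (mean 0.08 ± 0.08, adjusted p = 0.809), and its second probe -0.03 ± 0.05. Axin1, a scaffold of the complex that destroys beta-catenin, stood at -0.03 ± 0.29. The 2 probes of Tcf7l1, which the array lists as Tcf3 and which the name rule therefore missed, gave 0.09 ± 0.12 and 0.15 ± 0.20.

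Tcf7l2 had the largest spread between pairs of all members. Its brighter probe gave -1.19, 0.33, 0.61 and -0.55, a mean of -0.20 ± 0.82 (95% interval -0.98 to 0.58; adjusted p = 0.921). The intensities ran from 8.87 to 10.001 in the mutants and from 9.39 to 10.87 in the controls, and the control of pair 1 was the brightest of the 8 animals. Fzd7 (-0.28, 0.39, 0.51 and -0.31) and Rspo1 (-0.06, 0.22, 0.35 and -0.18) were likewise below 0 in pairs 1 and 4 and above 0 in pairs 2 and 3. So were Sfrp2 (-0.25, 0.07, 0.05 and -0.47) and Fzd1 (-0.01, 0.33, 0.11 and -0.17). Th, the tyrosine hydroxylase gene from the list of brainstem and midbrain markers, had the same signs (-0.28, 0.16, 0.20 and -0.34). Tcf7l2, Fzd7, Rspo1 and Th were set side by side after their values were seen. How many of all genes had these signs was not counted. The second Tcf7l2 probe, which is dimmer, did not have these signs: it gave -0.27, -0.01, -0.03 and 0.18, a mean of -0.03 ± 0.18. Of the other tested markers of that list, Hoxc4 (-0.07, 0.02, 0.04 and -0.02) and Hoxa3 (-0.09, 0.09, 0.01 and -0.02) had the signs of Th. Their values were small, with means of -0.01 ± 0.05 and -0.001 ± 0.07. Hoxb3 (-0.05, -0.11, -0.13 and 0.22) had the opposite signs in pairs 2 to 4. The part of tissue outside the cerebellum in the Tcf7l2 ratios was not tested. All 4 brainstem and midbrain markers that could be tested, Hoxb3 (-0.02 ± 0.16) among them, had mean ratios below 0, with a median of -0.01 and pair medians of -0.08, 0.06, 0.03 and -0.02, and their summed intensity ran from 769 to 820 in mutants and from 739 to 898 in controls.

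**Figure D3:**
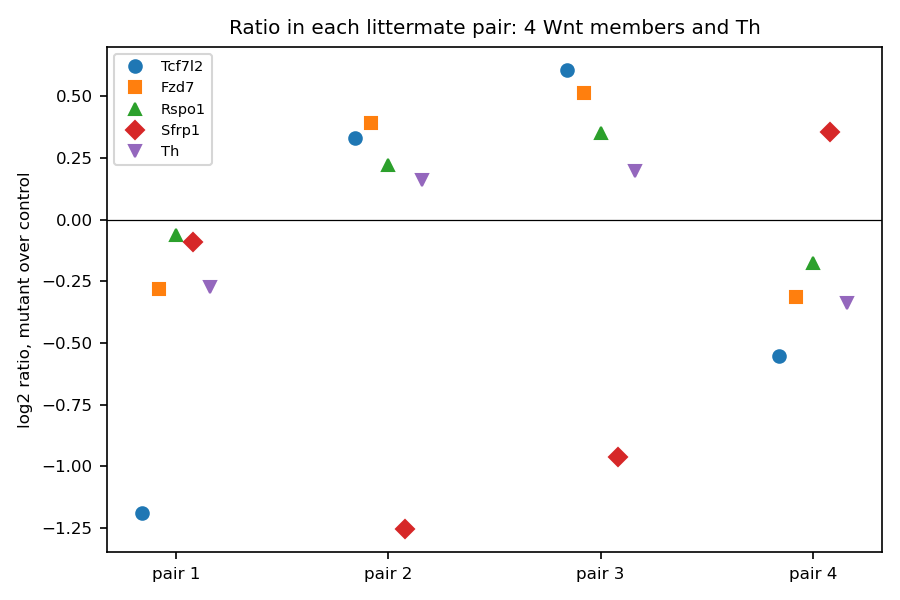
The vertical axis gives the log2 ratio of mutant over control in each littermate pair for Tcf7l2, Fzd7, Rspo1, Sfrp1 and the midbrain marker Th. The values of Tcf7l2, Fzd7, Rspo1 and Th lie below 0 in pairs 1 and 4 and above 0 in pairs 2 and 3, and Sfrp1 follows another order. For Tcf7l2 the brighter probe is shown.

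Sequence upstream of the start was looked at because Axin2, Wnt6 and Fzd9 differ in whether and how they moved. RefSeq promoters (build GRCm38.p6) were matched for 22 of the 34 genes, among them Wnt6 and Fzd9 but neither Sfrp4 nor Dkk3, and the 250 bases before each start were searched on both strands for the core letters bound by Tcf and Lef factors: AACAAAG, then ATCAAAG, then TACAAAG and lastly TTCAAAG. At least 1 match was found in 5 of 30 member promoters (16.7%), beside 4874 of 32851 promoters of the same length (14.8%). The promoters of Wnt6, Fzd9 and Axin2 held none, and 1 of the 2 promoters of Wnt11 held ATCAAAG 51 bases before the start, in capitals below.
Wnt6 promoter, chr1:74771642-74771891, plus strand: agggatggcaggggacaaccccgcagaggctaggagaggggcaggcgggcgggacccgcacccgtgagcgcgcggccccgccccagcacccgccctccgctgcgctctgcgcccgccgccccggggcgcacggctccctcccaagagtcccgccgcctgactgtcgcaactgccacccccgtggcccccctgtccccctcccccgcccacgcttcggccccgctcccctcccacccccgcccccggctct
Fzd9 promoter, chr5:135251048-135251297, minus strand: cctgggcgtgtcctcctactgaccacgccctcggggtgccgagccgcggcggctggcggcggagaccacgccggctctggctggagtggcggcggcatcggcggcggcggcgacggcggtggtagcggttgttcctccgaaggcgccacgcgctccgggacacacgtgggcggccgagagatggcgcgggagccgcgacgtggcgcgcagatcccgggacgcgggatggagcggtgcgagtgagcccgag
Axin2 promoter, chr11:108920099-108920348, plus strand: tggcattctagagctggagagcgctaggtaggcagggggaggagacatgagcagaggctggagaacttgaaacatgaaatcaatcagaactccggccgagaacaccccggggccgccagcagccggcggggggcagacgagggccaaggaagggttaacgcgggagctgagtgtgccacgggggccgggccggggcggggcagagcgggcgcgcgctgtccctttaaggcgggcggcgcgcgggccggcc
Wnt11 promoter, chr7:98834862-98835111, plus strand: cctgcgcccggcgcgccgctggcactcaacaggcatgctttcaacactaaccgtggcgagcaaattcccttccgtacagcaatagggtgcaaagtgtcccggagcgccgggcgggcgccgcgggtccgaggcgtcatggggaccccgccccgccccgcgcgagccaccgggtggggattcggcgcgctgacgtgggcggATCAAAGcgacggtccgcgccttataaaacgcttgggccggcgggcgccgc
The share among member promoters is near that among all promoters, and a match or its absence says nothing about whether a factor binds.

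The rest of the pathway was described from 6 lists of genes outside the members. Of 15 tested genes of Wnt secretion and extracellular modulation, none passed. The modulator gene Cthrc1 gave -0.68 ± 0.37 (adjusted p = 0.0874) and the secreted Wnt inhibitor gene Wif1 -0.52 ± 0.37 (adjusted p = 0.166). Cthrc1 passed when pair 2 (-0.52, adjusted p = 0.0391) or pair 4 (-0.83, adjusted p = 0.00864) was left out, and Wif1 without pair 4 (-0.67, adjusted p = 0.0159). Wif1 was above background on 3 of 4 arrays in the mutant channel and on 4 in the control channel, so its ratio rests partly on a mutant value at background; it was -0.87 with a normexp offset of 10 and -1.61 with the processed signals. Of 12 other receptor genes, Lgr6, a receptor for R-spondins, rose and none fell. Its brighter probe gave 1.36, 1.503, 1.27 and 1.43, a mean of 1.39 ± 0.10 (2.62-fold, adjusted p = 0.00376), and its second probe a smaller mean of 0.59 ± 0.21. Lgr6 did not pass with normexp fitted on all spots (1.09, adjusted p = 0.0850). Lrp4, an Lrp family receptor, stood at 0.37 ± 0.15 (adjusted p = 0.153), and Znrf3, a ligase that removes Frizzled receptors, at 0.41 ± 0.59; without replicate 4 both passed (0.45, adjusted p = 0.0472, and 0.71, adjusted p = 0.0384).

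Of 29 tested genes of the cytoplasmic beta-catenin pathway none passed, and the median was 0.00. Dact2, which binds Dishevelled, stood at 0.38 ± 0.24 (adjusted p = 0.304) and Cxxc4 at 0.17 ± 0.11. Of 22 nuclear partners and co-repressors none passed, with a median of -0.04. The repressor gene Hbp1 stood at 0.36 ± 0.08 (adjusted p = 0.0856) and Cby1, which binds beta-catenin, at -0.21 ± 0.05 (adjusted p = 0.305). Of 27 genes of the polarity and calcium branch, the atypical cadherin gene Celsr1 rose and none fell. Celsr1 gave 1.36, 1.66, 1.26 and 1.33, a mean of 1.40 ± 0.18 (2.64-fold, adjusted p = 0.00529), while its polarity partner Vangl1 stood at 0.42 ± 0.20 (adjusted p = 0.180) and Nfatc4 at -0.25 ± 0.11. Celsr1 did not pass with normexp fitted on all spots (1.15, adjusted p = 0.0547).

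Of 31 tested genes that beta-catenin and Tcf or Lef are known to induce, 1 rose and none fell, and the median was -0.02. The gene that rose was Ccnd1, the cyclin D1 gene (0.98 ± 0.24, adjusted p = 0.0241), which did not pass with the processed signals (adjusted p = 0.0541), median centring (adjusted p = 0.0601) or without replicate 1 (0.84, adjusted p = 0.0583). Ccnd2 gave 0.97 ± 0.46 (adjusted p = 0.122), and passed without replicate 3 (1.23, adjusted p = 0.0313) and with no dye term (adjusted p = 0.0324). Ephb3, a receptor tyrosine kinase gene, stood at 0.38 ± 0.09 (adjusted p = 0.102). The mean ratios of the 31 genes ran from -0.84 to 0.98, and 14 lay above 0. By these counts 3 of 136 entries of the 6 lists rose, 2.21%, where 0.588% of all genes rose. Some genes stand on more than 1 list, and the lists were chosen with earlier results of these data known.

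**Figure D4:**
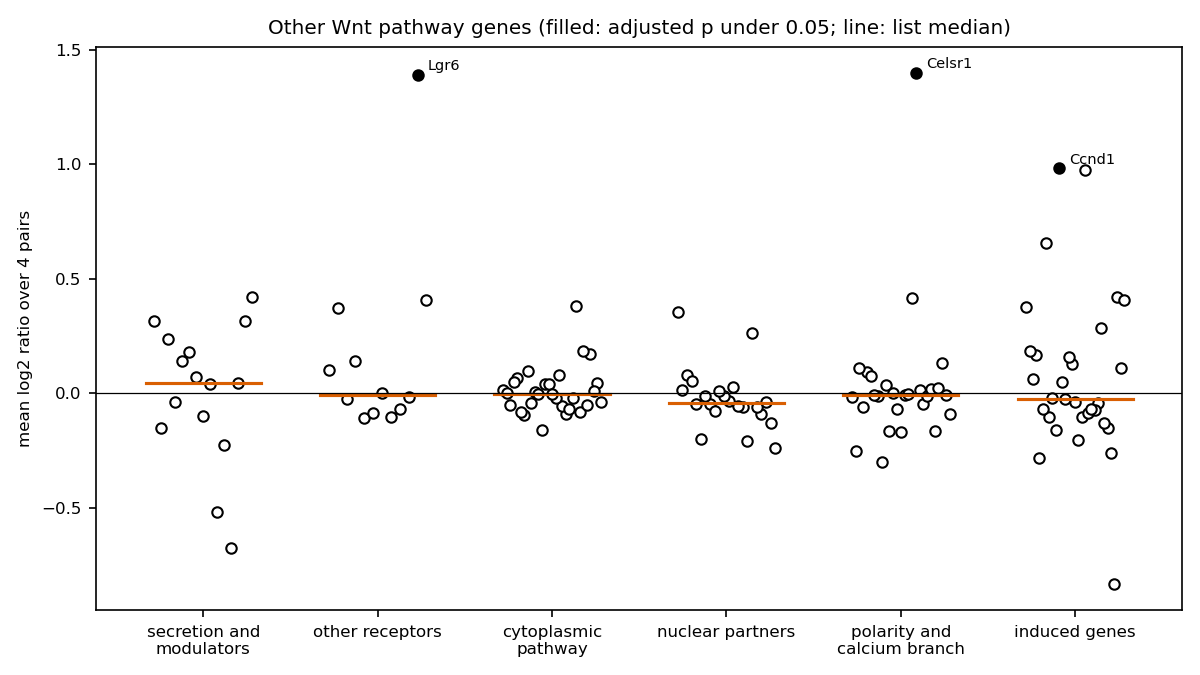
The vertical axis gives the mean log2 ratio over 4 pairs for each tested gene of 6 lists of the Wnt pathway outside the members, with an orange line at each list's median. Lgr6, Celsr1 and Ccnd1 are filled because they passed, and every list median lies between -0.04 and 0.04.

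Markers of other cell types were read beside the called genes. Of 16 tested markers of astroglia and Bergmann glia, 3 rose (Aldh1l1, Gfap and Fabp7) and 5 fell (Dao, S100b, Aqp4, Ntsr2 and Slc1a2), while Gdf10 (0.87) and Gjb6 (-0.41) passed only under some alternatives. Of the 5 that fell, Dao, Aqp4 and Slc1a2 did not pass with normexp fitted on all spots, and S100b, Aqp4, Ntsr2 and Slc1a2 did not pass with the processed signals. The median of the 16 markers was -0.40, with 5 above 0 and medians of -0.31, -0.38, -0.30 and -0.36 in pairs 1 to 4. Their summed intensity ran from 234275 to 306788 in mutants and from 270392 to 285988 in controls. The part of changes within astroglia in the Sfrp4, Dkk3, Wnt6 and Fzd9 ratios was not tested. Of 12 markers of meninges and fibroblasts none passed, 9 lay above 0 and the median was 0.12. Lum stood at 0.56 ± 0.36 (adjusted p = 0.144) and Cldn11, which oligodendrocytes also make, at -0.34 ± 0.17 (adjusted p = 0.152). Dcn (0.52 ± 0.30) and Col1a1 (0.65 ± 0.94) were named after their values were seen. Col1a1 was 2.06 in pair 1 and between 0.16 and 0.20 in the others. The medians of the 12 markers were 0.17, 0.17, 0.14 and 0.09 in pairs 1 to 4. Their summed intensity ran from 33370 to 43376 in mutants and from 32194 to 40843 in controls, no marker was at background, and the part of meningeal RNA in the Sfrp4, Dkk3 and Wnt6 ratios was not tested. Of 11 choroid plexus markers none passed, and their median ran through 0.13, -0.58, 0.38 and 0.49 in pairs 1 to 4; Otx2 (0.08 ± 0.20) and Kl (0.16 ± 0.54) had the smallest p. Their summed intensity ran from 17003 to 29067 in mutants and from 14387 to 26714 in controls, and the part of choroid plexus RNA in the Sfrp4, Dkk3, Wnt6 and Fzd9 ratios was not tested.

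No gene of the remaining marker lists passed. The medians were 0.01 for 12 granule neuron, -0.01 for 11 Purkinje neuron, -0.01 for 9 interneuron, -0.26 for 12 oligodendrocyte, -0.11 for 8 oligodendrocyte precursor, 0.09 for 11 microglial and -0.09 for 15 endothelial and pericyte markers. In the same order, 7, 4, 4, 1, 2, 6 and 0 of these markers lay above 0. The genes with the smallest p were Slc17a7 (-0.19 ± 0.21) and Zic1 (0.18 ± 0.39) for granule neurons, Aldoc (-0.21 ± 0.30) and Itpr1 (0.14 ± 0.29) for Purkinje neurons, and Gad1 (-0.09 ± 0.11) and Prkcd (-0.09 ± 0.16) for interneurons. For glia and vessels they were Cldn11 and Opalin (-0.40 ± 0.20), Vcan (0.36 ± 0.18) and Sox10 (-0.22 ± 0.12), Gpr34 (0.16 ± 0.07), and Vtn (-0.19 ± 0.07) and Pdgfrb (-0.16 ± 0.15). Opalin passed without replicate 2 (-0.52, adjusted p = 0.0318).

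The 4 calls among the members depend on how spots with an outlier flag enter the background fit. When normexp was fitted on all spots and the flags were applied afterwards, none of the 34 genes passed in limma, 5 had an unadjusted p under 0.05, and the ratios kept their direction: Sfrp4 stood at 1.22 (adjusted p = 0.0721), Dkk3 at 0.96 (adjusted p = 0.0721), Wnt6 at 0.64 (adjusted p = 0.0721) and Fzd9 at -0.55 (adjusted p = 0.190). Sfrp4 and Dkk3 passed in the other 18 alternatives, with ratios from 1.33 to 1.83 and from 1.18 to 1.63, Wnt6 passed in 15 of 19 and Fzd9 in 13 of 19.

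**Figure D5:**
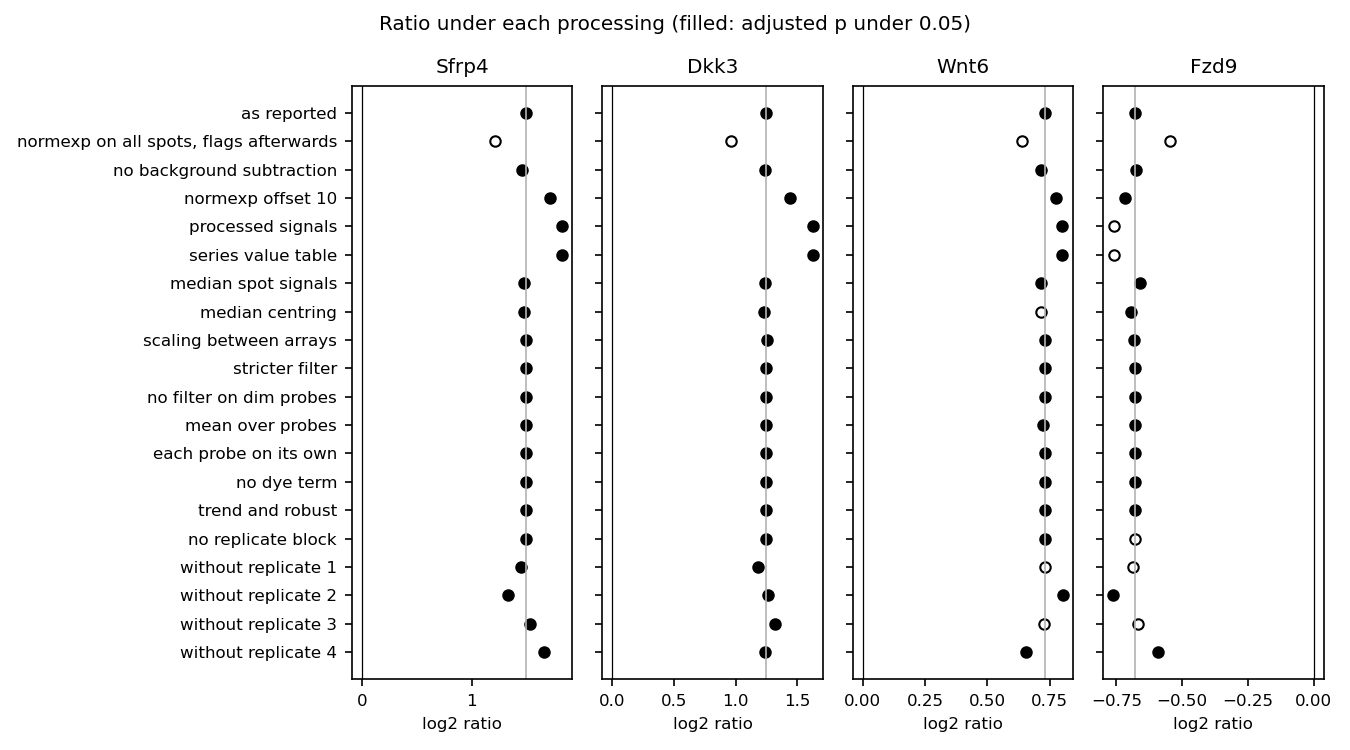
Each row is 1 way of processing the arrays and each panel gives the log2 ratio of 1 called gene, with a filled circle for an adjusted p under 0.05 and a grey line at the reported value. Sfrp4 and Dkk3 are open in 1 row, and Fzd9 is open in 6.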

How the data were processed

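Total RNA (500 ng per animal, per the labels) was amplified, labelled and hybridised to 4 Agilent two-colour arrays, all on 1 slide. The deposited scanner tables (Agilent Feature Extraction 10.5.1.1, per the file headers) give red and green spot intensity, background, flags and a log10 ratio for 45018 spots. The authors' deposited value table equals the log10 ratio of the scanner's processed signals (largest difference 4.84e-06) and served as an alternative.

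Mean intensities were background-corrected with normexp (offset 50) without the 143 to 248 flagged spots per array, and normalized by loess within arrays. Spots of a probe were averaged and the brightest probe stood for a gene. A probe was tested if the scanner marked either genotype as well above background on every array and at least 3 arrays gave a value (a probe with 10 spots needed most of them marked). Log2 ratios were fitted in limma 3.58.1 (R 4.3.3) with a genotype and a dye term, leaving 2 residual degrees of freedom, and 28 of 18024 genes lacked 1 array. Normalized log2 intensities of single channels are after loess and Aquantile; summed intensities are the sum of their linear values. Folds come from mean log2 ratios. The SDs after ± were taken over the pair ratios with any dye effect left in, so they hold dye order as well as spread between animals. The p-values and intervals come from the fit with the dye term. The fit was tested on simulated data.

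Each array holds both littermates of a pair, as the design text states, so every ratio is paired. Symbols came from RefSeq by accession for 24844 of 41174 probes and otherwise from the files. Values in every pair are given for called members and the 12 others with the smallest p; of each other list, called genes and the 2 others with the smallest p are named, except for 1 gene that is not reported here. Members and lists were chosen with earlier results of these data known. The 19 alternatives changed flags, background, signals, normalization, filter, probe rule, model and replicates. Probe coordinates are those of the files (mm9), and probes dimmer than the filter were left out of tests.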

Additional observations from a re-analysis of the deposited data

Results flagged for a closer look

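In 6 of 79 genes checked, 3 of them among the 34 members, 1 pair stood apart from the other 3 by Dixon's test on the 4 log2 ratios; chance alone sets off this test in about 1 in 20 groups. Fzd9 was -0.42 in pair 2 and between -0.78 and -0.74 in the others. Fzd10 was 1.06 in pair 2 and between 0.17 and 0.30 in the others. Dkkl1 was -0.42 in pair 4 and between 0.09 and 0.15 in the others. Among the markers, Slc1a2 (astroglia) was -0.41 in pair 4 and between -0.64 and -0.61 otherwise. Vcan (oligodendrocyte precursors) was 0.093 in pair 3 and between 0.43 and 0.46 otherwise. Lum (meninges) was 1.09 in pair 1 and between 0.33 and 0.46 otherwise. Col1a1, another marker of that list, was not among the genes checked. The ratios used for Dixon's test kept any dye effect.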

How the results depend on the processing

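Sfrp4, Dkk3, Wnt6 and Fzd9 kept their direction in all 19 alternatives. With normexp fitted on all spots, 0 members rose and 0 fell, 5 had an unadjusted p under 0.05 in limma, and 50 of all genes rose and 32 fell, against 106 and 80 as reported; the cause was not tested. With the processed signals and with the value table, 0 members and 53 of all genes fell, and with no replicate block (mutant and control of an array taken as unpaired) 0 members fell. Leaving out 1 pair gave 2 to 4 higher and 0 to 1 lower members, and 41 to 216 higher and 11 to 127 lower genes overall. The lowest overall counts came without replicate 1, the highest count of higher genes without replicate 4 and of lower genes without replicate 2. Of the marker calls, Aqp4, Slc1a2, S100b, Ntsr2 and Fabp7 were lost without replicate 1 and without replicate 3; S100b (adjusted p = 0.0624), Aqp4 (0.0650), Ntsr2 (0.0637) and Slc1a2 (0.0650) with the processed signals and the value table; and Dao (0.0630), Aqp4 (0.0921) and Slc1a2 (0.179) with normexp on all spots. Median centring lost Aqp4 and Slc1a2, no replicate block lost Aqp4, Slc1a2, S100b and Fabp7, no dye term lost Aqp4, and the mean over probes lost Slc1a2.

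Some means near 0 changed sign. With normexp on all spots Axin1 was 0.0085 and Wnt11 -0.023; with no background subtraction Fzd6 was 0.00089 and Fzd3 0.0042. Fzd3 was 0.014 with the processed signals and the value table and 0.0027 with median spot signals, Fzd6 was 0.013 with scaling between arrays, and Dicer1 was -0.013 as the mean over probes. Leaving out 1 pair moved Tcf7l2 from -0.65 to 0.25, Fzd7 from -0.12 to 0.28, Fzd1 from -0.064 to 0.19, Fzd4 from -0.23 to 0.046, Fzd6 from -0.14 to 0.14, Fzd3 from -0.052 to 0.041 and Lrp5 from -0.25 to 0.043. It moved Axin1 from -0.15 to 0.082, Dkkl1 from -0.15 to 0.13, Rspo1 from -0.020 to 0.19, Wnt11 from -0.022 to 0.075, Wnt5b from -0.077 to 0.050 and Wnt7b from -0.092 to 0.056. Outside the members it moved Dicer1 from -0.054 to 0.13, Th from -0.19 to 0.062, Hoxb3 from -0.098 to 0.066, Otx2 from -0.031 to 0.20 and Kl from -0.13 to 0.46.

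With 4 pairs, small changes of the uncalled members cannot be told from none, and 15 of 49 members were too dim to test. Under the stricter filter Wnt1, Wif1 and Hoxb3 gave no value.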
